A study of Mus musculus with 12 samples.

Results

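Smooth muscle contractile genes are described here across 4 groups of duodenum, the first stretch of the small intestine, from C57BL/6N mice. The genes are 10 listed symbols: Acta2, Actg2, Myh11, Tagln, Cnn1, Des, Myl9, Mylk, Smtn and Lmod1. They were chosen with earlier results of these data known. All 10 were found among the 26121 genes that stand in both deposited count tables. The HFD PCN mice (libraries 5, 11 and 27) ate a high-fat diet and were injected intraperitoneally with PCN (pregnenolone-16α-carbonitrile), which activates the pregnane X receptor in rodents, at 50 mg/kg on each of 4 days. The HFD Vehicle mice (libraries 23, 50 and 55) ate the same diet and were injected with 30% DMSO in corn oil. The HFD mice (libraries 4, 30 and 38) ate the diet without injection, and the Chow mice (libraries 8, 17 and 19) ate regular chow. Diets began at 6 weeks of age and lasted 18 weeks. The labels give no transgene or deletion in any group. RNA came from whole pieces of tissue, so every level below mixes muscle wall, mucosa, vessels and nerves.

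Smooth muscle of the gut wall contracts when calcium binds calmodulin and activates myosin light chain kinase (Mylk). The kinase phosphorylates the regulatory light chain (Myl9) of the smooth muscle myosin whose heavy chain is Myh11, and this myosin pulls on thin filaments of alpha (Acta2) and gamma (Actg2) smooth muscle actin. In the small intestine these genes mark the circular and longitudinal muscle layers, the thin muscle under the mucosa and the walls of vessels. Many are switched on through the serum response factor SRF, which binds a DNA element called the CArG box.

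The start regions of Acta2 and Myl9 show what that element looks like in these genes. A CArG box was searched as 2 C, 6 bases that are A or T, and 2 G, a pattern that reads alike on both strands. A form with 1 of the 6 inner bases changed to C or G was counted as CArG-like. RefSeq's promoter table for GRCm38.p6 held entries for 7 of the 10 genes (Acta2, Cnn1, Des, Myl9, Mylk, Smtn and Lmod1). Over the 250 bases before the start in that table, only Myl9 of the 7 held a CArG box, and Acta2 and Myl9 held CArG-like forms. Of all 32851 promoters in the table, 1.47% held a CArG box in the same window and 8.59% held either form. The letters are given below from 5′ to 3′ on the gene's strand, with the matches in capitals. They are a description of these windows and say nothing of the factor, nor of elements farther away. RefSeq places both starts apart from the deposited gene coordinates, so distances are counted from the deposited ones.
Acta2, chr19:34255438-34255467, minus strand, match beginning 121 bases before the start in the deposited table: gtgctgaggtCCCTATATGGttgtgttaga
Acta2, chr19:34255388-34255417, minus strand, match beginning 71 bases before the start in the deposited table: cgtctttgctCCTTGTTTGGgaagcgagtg
Myl9, chr2:156775214-156775419, plus strand, CArG box beginning 117 bases and CArG-like form 55 bases before the start in the deposited table, where the stretch ends: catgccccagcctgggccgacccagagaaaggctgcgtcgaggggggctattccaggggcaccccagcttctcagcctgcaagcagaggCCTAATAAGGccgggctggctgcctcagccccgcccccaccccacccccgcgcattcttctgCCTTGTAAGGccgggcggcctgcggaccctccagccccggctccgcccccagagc

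The libraries held 4676718 to 20684369 counts, with a median of 15404357. Each contractile gene had between 55 and 13233 counts in each library. Replicates differed by more than sampling noise in every pair, and the labels do not state that each is a separate animal; p-values therefore measure the spread between libraries, which may be technical. The extraction protocol names liver where the tissue label says duodenum. A list of hepatocyte markers summed to 0.923 to 3.66 CPM (counts scaled to the same library total), against 13963 to 42065 CPM for a list of enterocyte markers. Markers of skeletal and heart muscle summed to 8.57 to 32.2 CPM, against 907 to 2400 CPM for the 10 contractile genes. Libraries HFD Vehicle 23, HFD Vehicle 50 and HFD 4 stood apart from the other 9 in the contractile genes, as described next. Libraries HFD Vehicle 23 and HFD Vehicle 50 also held the highest sums of 2 heat shock chaperone genes, 4630 and 3974 CPM, against 577 to 1975 CPM in the remaining libraries. The share of mitochondrial ribosomal RNA was 33.6% in HFD Vehicle 23, against 8.69% to 19.2% elsewhere.

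The share of all counts that fell on the 10 genes served as a measure of how much muscle wall each piece held. It was 0.0982%, 0.0988% and 0.123% in HFD PCN 5, 11 and 27. In the HFD Vehicle libraries 23, 50 and 55 it was 0.142%, 0.182% and 0.113%. In HFD 4, 30 and 38 it was 0.211%, 0.104% and 0.0961%. The Chow libraries lay close together, at 0.137%, 0.125% and 0.143% in 8, 17 and 19. The share was thus highest in HFD 4 and HFD Vehicle 50, and the highest share was 2.20 times the lowest, in HFD 38. Exact 95% Clopper-Pearson intervals of these shares were narrow, the widest running from 0.207% to 0.215% in HFD 4; they cover counting error only. Group means were 0.106% ± 0.0139 in HFD PCN, 0.146% ± 0.0347 in HFD Vehicle, 0.137% ± 0.0642 in HFD and 0.135% ± 0.00934 in Chow (SD, n = 3 each). The ranges of HFD PCN and HFD Vehicle overlapped, and the range of HFD took in those of the other 3 groups. In bulk tissue, more smooth muscle cells in the piece and more contractile RNA per cell cannot be told apart. Mylk gave 33.6% of the reads of the 10 genes and is also transcribed in epithelial cells, so the share may hold reads from epithelium.

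Mitochondrial and ribosomal RNA lowered the share in HFD Vehicle 23. With those transcripts left out of the total, the share was 0.257% in HFD Vehicle 23, 0.241% in HFD Vehicle 50 and 0.291% in HFD 4, against 0.112% to 0.181% in the other 9 libraries. After TMM scaling, which sets libraries level on the bulk of their genes, the summed level of the 10 genes set the same 3 libraries apart. The sum reached 1804 CPM in HFD Vehicle 23, 1852 CPM in Vehicle 50 and 2400 CPM in HFD 4, against 907 to 1369 CPM in the rest.

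The sum of pan-epithelial genes ran the other way in these 3 libraries. A list of 8 such genes, led by Cdh17 and Krt8, summed to 3486 and 4252 CPM in HFD Vehicle 23 and 50 and to 3379 CPM in HFD 4, against 5014 to 6421 CPM in the other 9. Not every member did so: Krt19 was highest of all in HFD Vehicle 23 and 50, at 860 and 662 CPM, and Krt18 and Cldn7 lay within the range of the other libraries in both. The 13 enterocyte genes summed to 13963 and 31099 CPM in HFD Vehicle 23 and 50 and to 21778 CPM in HFD 4, against 29587 to 42065 CPM in the other 9, so that HFD Vehicle 50 lay within the range of the rest. The contractile sum was 51.7%, 43.6% and 71.0% of the pan-epithelial sum in HFD Vehicle 23, HFD Vehicle 50 and HFD 4. In the other 9 libraries it was 14.1% to 27.3%. The part of this balance in the differences between groups was not tested beyond leaving libraries out.

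**Figure D1:**
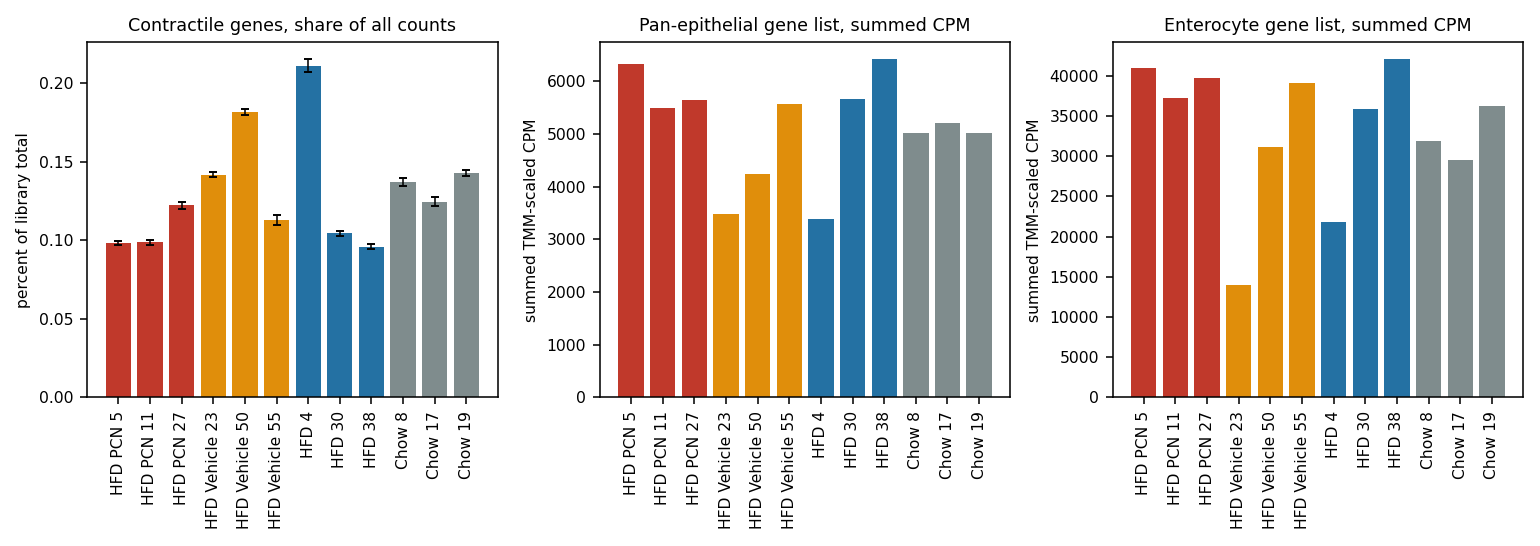
Share of all counts on the 10 contractile genes in percent (left, bars with exact 95% intervals), and summed TMM-scaled CPM of the pan-epithelial (middle) and enterocyte (right) gene lists, 1 bar per library, coloured by group. HFD Vehicle 50 and HFD 4 hold the highest contractile shares, 0.182% and 0.211%; HFD Vehicle 23, HFD Vehicle 50 and HFD 4 hold the 3 lowest pan-epithelial sums, 3486, 4252 and 3379 CPM.

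Compared per kilobase of exon, Myl9, Myh11, Acta2 and Mylk led. The median over 12 libraries was 53.4 CPM per kb for Myl9, 52.2 for Myh11, 41.5 for Acta2 and 36.3 for Mylk. Actg2, Des and Tagln followed at 22.7, 20.6 and 18.3 CPM per kb, and Cnn1, Smtn and Lmod1 at 7.84, 7.10 and 3.06. Not all neighbours in this order could be ranked: Myl9 exceeded Myh11 in 5 of 12 libraries, Actg2 exceeded Des in 8 and Cnn1 exceeded Smtn in 8. Acta2 exceeded Mylk, and Des exceeded Tagln, in 10 of 12, and the remaining steps held in all 12. By counts, which grow with length, Myh11 took 36.0% and Mylk 33.6% of the reads of the 10 genes.

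The 10 genes were then followed by role, in CPM after TMM scaling over all 12 libraries. The thick filament genes come first. Myh11, the heavy chain of smooth muscle myosin (ENSMUSG00000018830, chromosome 16, 14194535 to 14291372, minus strand, GRCm38), stood at 328, 383 and 390 CPM in HFD PCN 5, 11 and 27. In HFD Vehicle 23, 50 and 55 it stood at 710, 702 and 367 CPM, in HFD 4, 30 and 38 at 976, 397 and 294 CPM, and in Chow 8, 17 and 19 at 493, 396 and 459 CPM. The level in HFD Vehicle 55 fell within the HFD PCN range, while the other 2 vehicle libraries lay far above it, so the groups overlapped.

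Myl9, the regulatory light chain that the kinase phosphorylates (ENSMUSG00000067818, chromosome 2, 156775420 to 156781658, plus strand), had 59.4, 59.1 and 75.5 CPM in HFD PCN, against 66.3, 80.5 and 65.5 CPM in HFD Vehicle. Untreated HFD libraries 4, 30 and 38 had 93.4, 40.4 and 45.6 CPM, against 57.4, 57.1 and 64.7 CPM in Chow. It was the sole gene of the 10 whose 3 highest libraries were not HFD 4, HFD Vehicle 23 and HFD Vehicle 50, as HFD PCN 27 ranked above HFD Vehicle 23. Mylk, the kinase itself (ENSMUSG00000022836, chromosome 16, 34745210 to 35002420, plus strand), is also transcribed in epithelial cells in a longer form, and reads of the forms were not separated. Its levels were 363, 414 and 341 CPM in HFD PCN and 545, 563 and 345 CPM in HFD Vehicle. In HFD 4, 30 and 38 they were 746, 400 and 323 CPM, against 497, 403 and 456 CPM in Chow. HFD Vehicle 55 again lay among the HFD PCN libraries.

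The thin filament actins showed the same libraries on top. Acta2, the alpha actin that is also the main actin of vessel walls (ENSMUSG00000035783, chromosome 19, 34241090 to 34255336, minus strand), had 91.1, 89.5 and 98.6 CPM in HFD PCN and 132, 138 and 91.3 CPM in HFD Vehicle. In HFD it had 167, 75.3 and 65.2 CPM, and in Chow 89.8, 85.9 and 101 CPM. Actg2, the gamma actin typical of visceral muscle (ENSMUSG00000059430, chromosome 6, 83512905 to 83536265, minus strand), had 30.9, 29.7 and 38.2 CPM in HFD PCN and 48.7, 71.3 and 36.4 CPM in HFD Vehicle. Its levels were 54.0, 21.2 and 29.6 CPM in HFD and 39.7, 32.9 and 34.3 CPM in Chow, with the highest level in HFD Vehicle 50 and not in HFD 4. The actins are alike in coding sequence, but of all 50-base stretches of their longest transcripts 0.352% (Acta2) and none (Actg2) occur in a transcript of another gene.

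Lmod1, a leiomodin that starts new actin filaments (ENSMUSG00000048096, chromosome 1, 135324807 to 135368065, plus strand), was the least abundant member, at 12.1, 10.6 and 12.1 CPM in HFD PCN and 21.5, 18.9 and 11.2 CPM in HFD Vehicle. It reached 30.0 CPM in HFD 4, with 11.3 and 8.35 CPM in HFD 30 and 38, against 14.9, 11.3 and 12.6 CPM in Chow. Its level in HFD 4 was more than any other library's, and HFD 38 was the lowest of all 12.

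Among the actin-binding regulators, Smtn (smoothelin, a protein of contractile smooth muscle cells; ENSMUSG00000020439, chromosome 11, 3517523 to 3540612, minus strand) had 24.4, 28.6 and 23.8 CPM in HFD PCN, against 58.6, 42.6 and 33.0 CPM in HFD Vehicle. Here all 3 vehicle libraries lay above all 3 PCN libraries. Smtn had 67.6, 36.8 and 29.2 CPM in HFD, against 35.7, 26.4 and 27.7 CPM in Chow. Cnn1 (calponin, which binds actin and slows myosin; ENSMUSG00000001349, chromosome 9, 22099216 to 22109630, plus strand) was the other gene without overlap, with 19.6, 21.7 and 21.2 CPM in HFD PCN, against 27.2, 36.6 and 24.4 CPM in HFD Vehicle. In HFD it had 30.7, 14.7 and 17.1 CPM and in Chow 25.8, 17.6 and 19.3 CPM, an overlap. Tagln (transgelin or SM22, an actin-bundling protein; ENSMUSG00000032085, chromosome 9, 45929619 to 45936058, minus strand) had 30.3, 24.9 and 39.8 CPM in HFD PCN and 60.0, 55.4 and 37.4 CPM in HFD Vehicle. HFD 4, 30 and 38 had 60.4, 29.1 and 28.5 CPM of Tagln, against 35.2, 36.1 and 36.8 CPM in Chow. Chow was the tightest group for this gene, and HFD 30 and 38 lay under it while HFD 4 lay above.

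Des, the desmin intermediate filament that ties the contractile lattice together (ENSMUSG00000026208, chromosome 1, 75360329 to 75368579, plus strand), had 53.8, 51.8 and 82.4 CPM in HFD PCN, against 134, 142 and 63.3 CPM in HFD Vehicle. In HFD it had 175, 73.7 and 66.3 CPM, against 80.6, 79.5 and 75.4 CPM in Chow. As for Myh11, the vehicle group was split, with 23 and 50 far above the PCN libraries and 55 among them.

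Some of these genes overlap others. GENCODE M21 gives genes on the opposite strand over 67.9% of the exon bases of Tagln (Gm48529 and Pcsk7), 16.3% of those of Smtn, 6.85% of those of Mylk and 5.86% of those of Des, and over none for the other 6. The strand setting of the counting is not given in the sources used here. It is therefore not known whether reads over the shared bases were counted for these genes, for the overlapping ones or for neither.

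**Figure D2:**
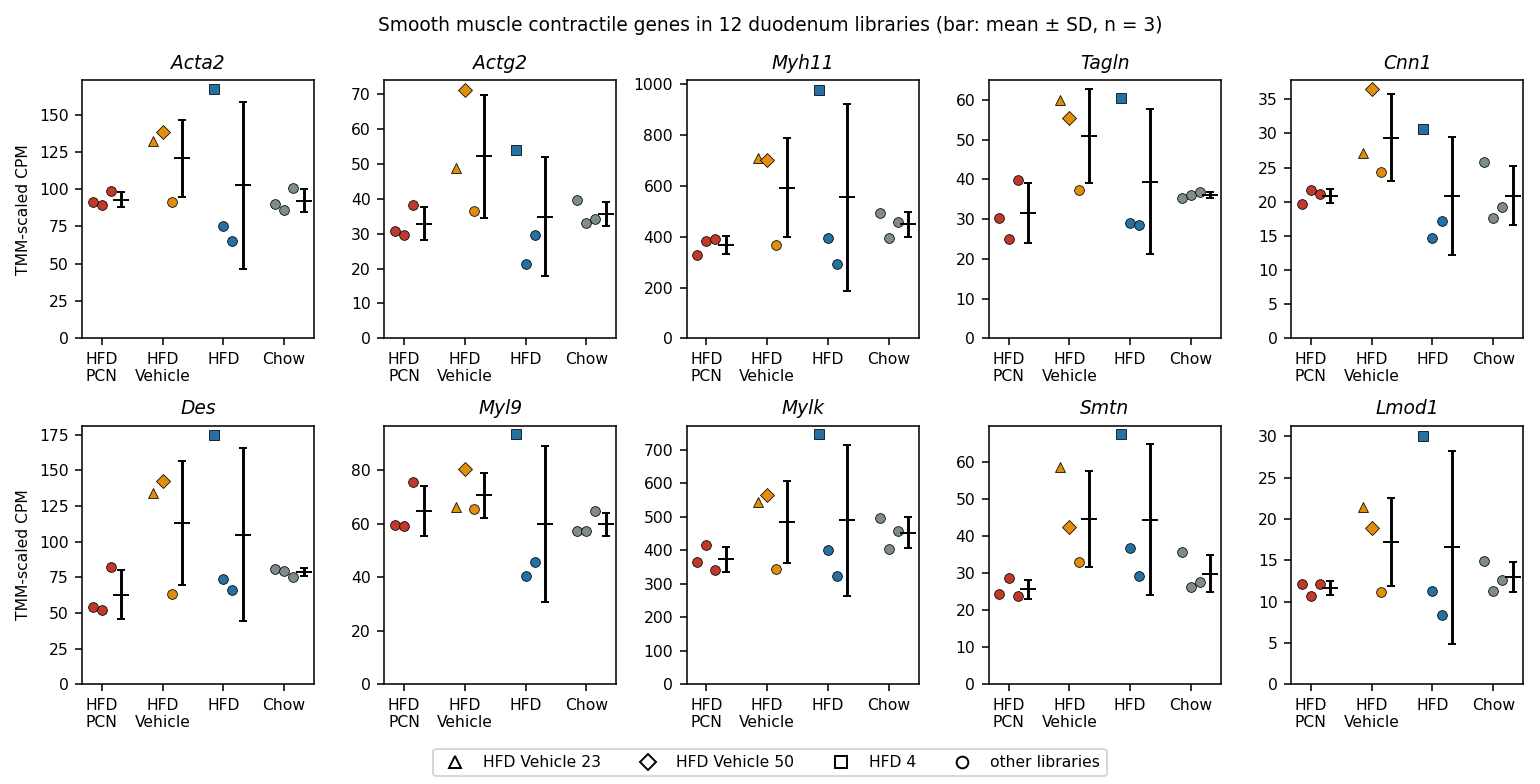
TMM-scaled CPM of each contractile gene in every library, by group, with the group mean ± SD (n = 3) beside the points. HFD 4 (square), HFD Vehicle 23 (triangle) and HFD Vehicle 50 (diamond) are the 3 highest libraries for 9 of the 10 genes, while HFD Vehicle 55 lies among or near the HFD PCN libraries.

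The comparison of HFD PCN with HFD Vehicle addresses what PCN does on the high-fat diet. All 10 genes had negative log2 fold changes with PCN, as did 51.0% of all genes, but none was called at an adjusted p under 0.05 in edgeR's quasi-likelihood test with Benjamini-Hochberg adjustment. The background was 10 of 16110 genes called, or 0.0621%. Log2 fold changes ran from -0.87 (Des) to -0.14 (Myl9), with a median of -0.64, against -0.01 over all genes tested. Smtn had the lowest p, at -0.82 on the log2 scale (SE 0.25, edgeR adjusted p = 0.231), with 24.5 ± 2.60 CPM in HFD PCN and 43.0 ± 12.9 CPM in HFD Vehicle on the scale of these 6 libraries. Des had -0.87 (SE 0.33, edgeR adjusted p = 0.246), Myh11 -0.70 (SE 0.30, adjusted p = 0.270) and Tagln -0.70 (SE 0.26, adjusted p = 0.242). The others were Actg2 at -0.68, Lmod1 at -0.59, Cnn1 at -0.51, Acta2 at -0.39 and Mylk at -0.39. At an unadjusted p under 0.05, edgeR passed 6 of the 10 (Smtn, Tagln, Des, Actg2, Myh11 and Cnn1), DESeq2 5 and limma-voom 6, against 11.5% of all genes lower at that level by edgeR. Neither DESeq2 nor limma-voom called any of the 10 after adjustment. Libraries did not overlap for Cnn1 and Smtn, both lower with PCN, against 9.48% of all genes. In the authors' deposited table the lowest adjusted p of the 10 was 0.1877, for Smtn.

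The values depended on which vehicle libraries entered. Without HFD Vehicle 55, the library nearest to the PCN group, 6 of the 10 genes were called lower by edgeR, against 12.6% of all 16789 genes tested (22.0% were called in either direction). They were Des (log2 fold change -1.15, edgeR adjusted p = 0.00795), Smtn (-0.99, adjusted p = 0.0106), Myh11 (-0.95, adjusted p = 0.0262), Actg2 (-0.88, adjusted p = 0.0190), Tagln (-0.88, adjusted p = 0.0191) and Lmod1 (-0.80, adjusted p = 0.0246). HFD Vehicle 23 and 50, which stand apart in heat shock genes, were also left out together. They are the 2 vehicle libraries highest in these genes, as HFD Vehicle 55 is the lowest of the 3 for all 10, so the direction in which each omission moved the values followed from the choice. Without the 2, the median was -0.01, 6 genes were negative and 4 positive, and the values ran from -0.36 (Smtn) to 0.12 (Mylk). In that fit 1 vehicle library stands for its group and is assumed to vary as the PCN libraries do, and none of the 10 was called, at 0.0122% of all genes. Set against the untreated HFD libraries in place of vehicle, HFD PCN gave a median of -0.35, from -0.78 (Smtn, edgeR adjusted p = 0.200) to 0.12 (Myl9), with none called at 0.325% of all genes.

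**Figure D3:**
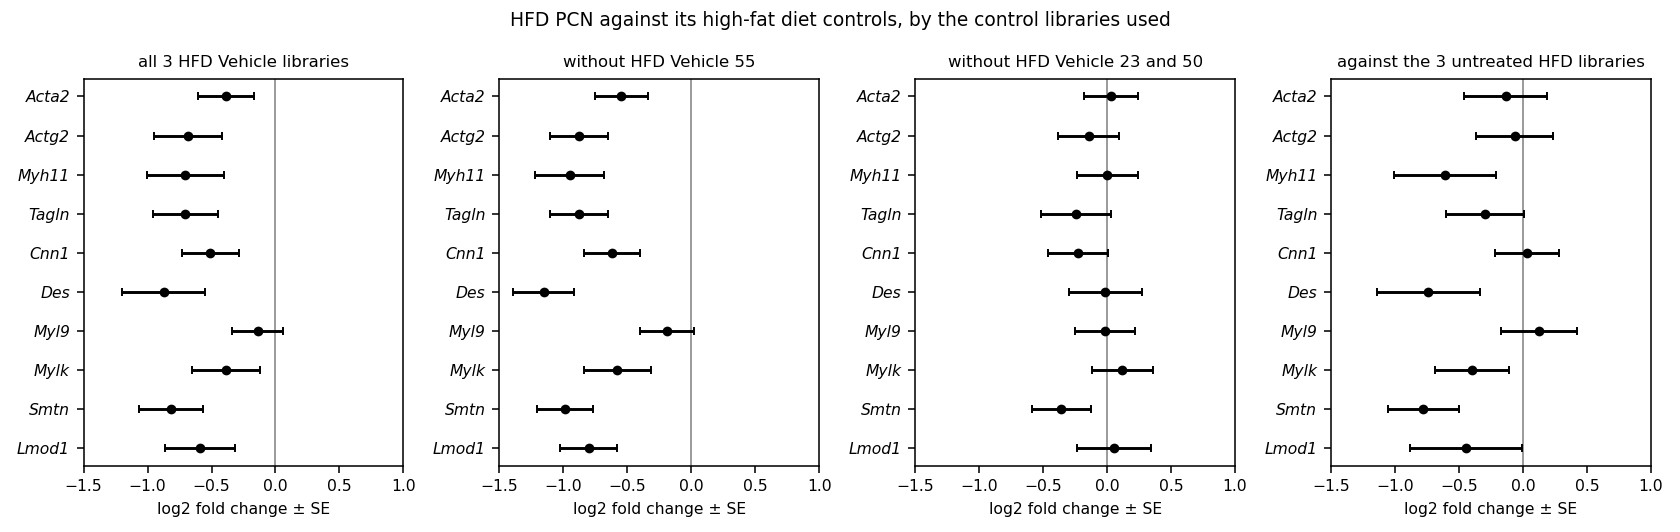
Log2 fold change ± SE of each contractile gene in HFD PCN against 4 choices of high-fat diet controls. All 10 points lie below 0 with the 3 vehicle libraries and without HFD Vehicle 55, 4 of 10 lie above 0 without HFD Vehicle 23 and 50, and 2 of 10 lie above 0 against untreated HFD.

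The comparison of HFD Vehicle with HFD asks what went with the injections themselves. None of the 10 genes was called, at a background of 0 of 16255 genes called by edgeR and 5.86% at an unadjusted p under 0.05. No contractile gene passed that unadjusted level in edgeR, 1 did in limma-voom (Cnn1), and DESeq2 called 29 of all genes. Log2 fold changes ran from -0.02 (Mylk) to 0.60 (Actg2, SE 0.37, edgeR adjusted p = 0.803), with 9 of 10 above 0 and a median of 0.18; of all genes, 50.7% lay above 0. The spread in both groups was wide: Myh11 averaged 580 ± 199 CPM in HFD Vehicle, against 545 ± 360 CPM in HFD (SD, n = 3 each). This comparison shares the HFD Vehicle libraries with the one above, where they enter with the opposite sign.

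The comparison of HFD with Chow addresses the diet. No contractile gene was called, at a background of 10 of 15278 genes called by edgeR, or 0.0655%, and none passed an unadjusted p under 0.05, which 10.3% of all genes did. DESeq2 and limma-voom also called none of the 10, against 0.897% and 0.0458% of all genes. Log2 fold changes ran from -0.05 (Actg2) to 0.57 (Smtn, SE 0.29, edgeR adjusted p = 0.524), with 7 of 10 above 0 and a median of 0.14, against 0.00 over all genes, of which 50.5% lay above 0. Des had 0.42 (SE 0.35), at 107 ± 62.5 CPM in HFD and 79.1 ± 2.59 CPM in Chow (SD, n = 3 each, scaled over these 6 libraries). The sign rested on HFD 4: without it the median was -0.38, and 9 of the 10 were below 0 (Smtn stayed above, at 0.15). In the authors' deposited table the 10 had log2 fold changes from -0.04 to 0.43 and adjusted p-values of 0.9417 or more.

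A test of any difference over the 4 groups called none of the 10 either, at a background of 41 of 16829 genes, or 0.244%. Smtn came closest, with F = 4.06 (edgeR adjusted p = 0.259), and it was the only one of the 10 below an unadjusted p of 0.05, which 17.1% of all genes passed. By the median, the spread within groups was somewhat wider for these genes than over all genes. The SD of log2 CPM within groups had a median of 0.40 over the 10, from 0.35 (Cnn1) to 0.55 (Lmod1), against 0.36 over all genes. Cnn1 and Myl9 lay under the median over all genes. The SD of the 4 group means had a median of 0.26, against 0.25 over all genes.

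**Figure D4:**
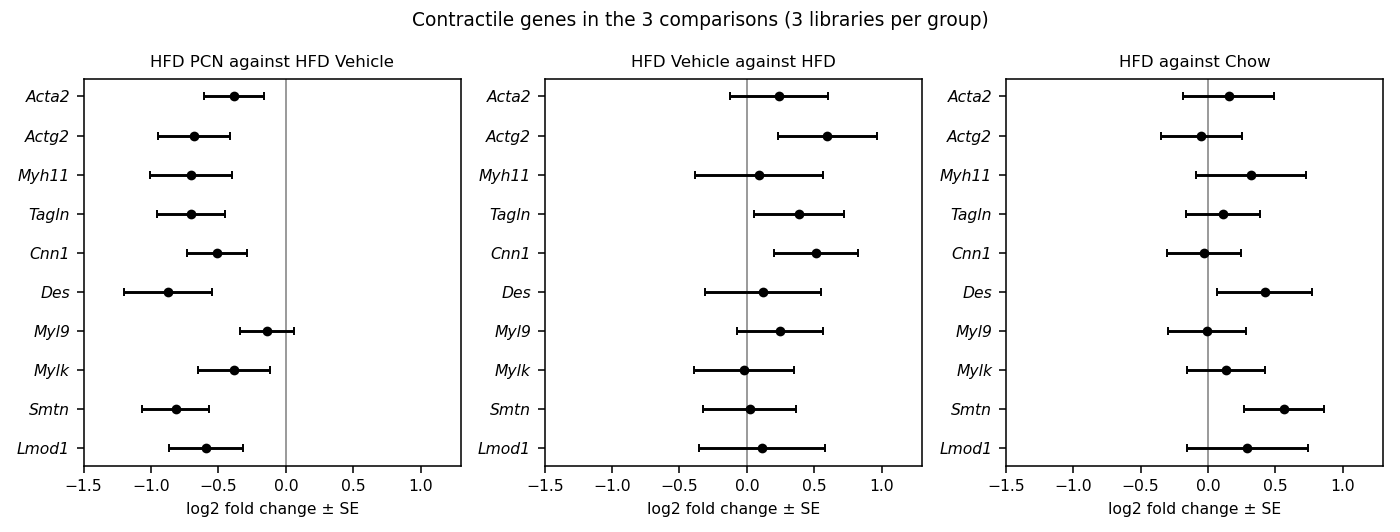
Log2 fold change ± SE of each contractile gene in the 3 comparisons, 3 libraries per group. With PCN all 10 points lie below 0, from -0.87 to -0.14; in HFD Vehicle against HFD 9 of 10 and in HFD against Chow 7 of 10 lie above 0, and none of the 10 was called in any comparison.

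Some of the genes kept a steadier proportion to Myh11 than others. The log2 ratio to Myh11 varied over the 12 libraries with an SD of 0.12 for Lmod1, 0.20 for Mylk and Des, 0.22 for Acta2, 0.24 for Tagln and 0.25 for Smtn. For Actg2 (0.32), Cnn1 (0.33) and Myl9 (0.37) it was wider; the SD of log2 CPM within groups was 0.43, 0.35 and 0.35 for these 3. Because HFD 4, HFD Vehicle 23 and HFD Vehicle 50 form a cluster of their own, the relation to Myh11 was taken over the other 9 libraries (the labels give no batch). There Mylk gave Pearson r = 0.87 (exact permutation p = 0.00214, adjusted over 9 relations 0.0192) and a Spearman coefficient of 0.78 (exact p = 0.0172, adjusted 0.140). Lmod1 gave r = 0.83 (exact p = 0.00870, adjusted 0.0392) and a Spearman coefficient of 0.73 (exact p = 0.0311, adjusted 0.140). The other 7 had r of 0.27 (Myl9) to 0.58 (Acta2), with exact p-values that missed the threshold after adjustment. Without the 2 libraries farthest from the median of Myh11, HFD 38 and Chow 8, r was 0.70 for Mylk and 0.26 for Lmod1, so that the relation of Lmod1 rested on those 2. The 3 libraries left out are the highest in Myh11, at 976, 710 and 702 CPM, so leaving them out narrowed the range of Myh11. The values over 9 libraries therefore cannot show that the other 7 genes vary apart from Myh11. Over all 12 libraries, with that cluster in, r was 0.70 (Myl9) to 0.97 (Lmod1). The reads of each gene share a library with those of Myh11, so these values describe libraries and not cells.

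Genes outside the 10 that were most like them were taken by Pearson's r with their mean log2 CPM over all 12 libraries, among 9944 eligible genes with a mean of at least 5 CPM. The highest r was that of Tpm2 (0.97), a tropomyosin of the thin filament. Pgm5 (0.96), a phosphoglucomutase-like protein of adhesion plaques, and Synm (0.95), an intermediate filament protein that pairs with desmin, came next. Flna (filamin A, an actin crosslinker), Atp2b4 (a calcium pump of the plasma membrane), Mrvi1 (the IRAG protein of cyclic GMP signalling), Pdlim3 (an actin-associated LIM protein), Rep15, Akap6 and Ttll7 had r of 0.92 to 0.94. Without HFD 4 and HFD Vehicle 50, the 2 libraries farthest from the median, r was 0.81 (Rep15) to 0.95 (Tpm2). Over the 9 libraries without HFD Vehicle 23 as well, it was 0.25 (Rep15) to 0.85 (Tpm2).

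**Figure D5:**
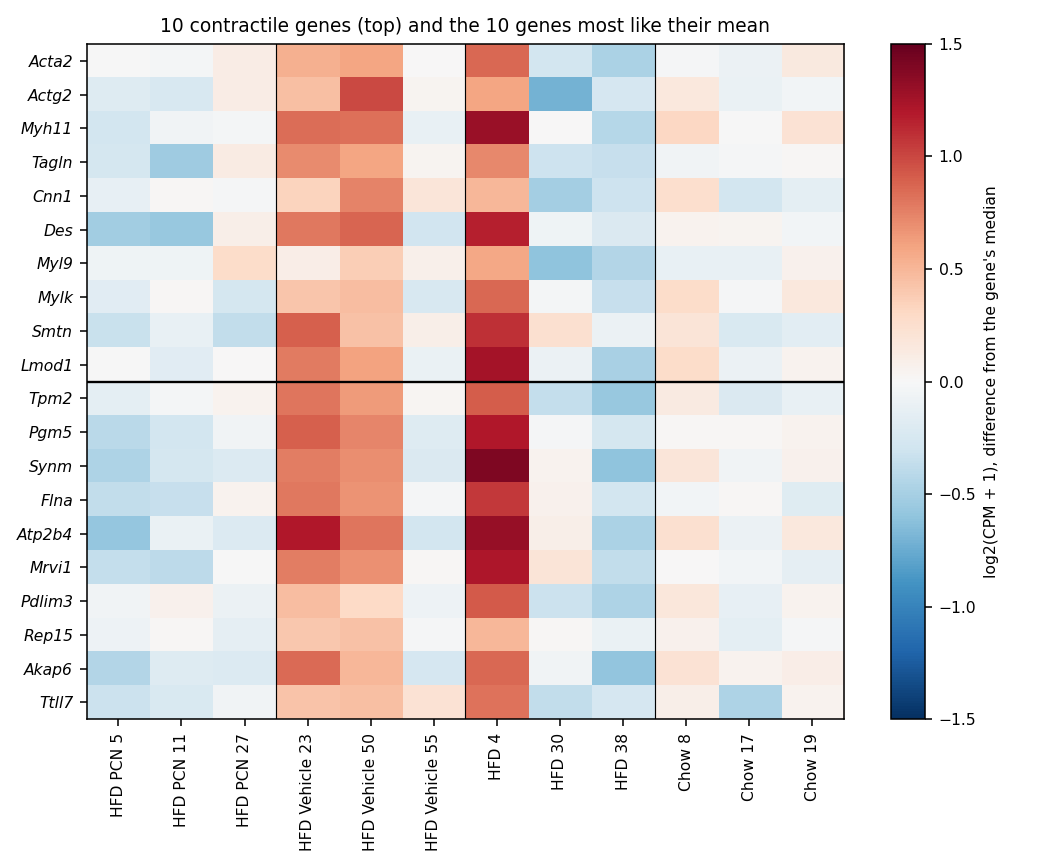
Level of the 10 contractile genes (above the line) and of the 10 genes most like their mean (below it) in the 12 libraries, as the difference of log2(CPM + 1) from each gene's median over libraries. HFD Vehicle 23, HFD Vehicle 50 and HFD 4 are above the median for all 20 genes.

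Other genes of the contraction pathway were counted from lists. In HFD PCN against HFD Vehicle no member of any of them was called by edgeR in either direction, at the background of 0.0621%. Of 10 further thin filament and crosslinking genes, 7 had negative log2 fold changes and 4 were lower at an unadjusted p under 0.05, against 51.0% and 11.5% of all genes, led by Cald1 (caldesmon, -0.75, edgeR adjusted p = 0.240) and Actn1 (alpha-actinin, -0.69, adjusted p = 0.241). Of 14 measured dense body and adhesion genes 10 were negative, with Synm at -0.82 and the integrin Itga5 at -1.12 (edgeR adjusted p = 0.240 for both). Of 10 genes of calcium handling 9 were negative, with a median of -0.56. Among them were Cacna1c, the pore of the L-type calcium channel, at -1.48 (SE 0.44, edgeR adjusted p = 0.231), and Jph2, which holds the plasma membrane to the calcium store, at -1.32 (SE 0.40, edgeR adjusted p = 0.231). Jph2 stood at 4.54, 5.08 and 6.94 CPM in HFD PCN, against 20.1, 13.7 and 6.10 CPM in HFD Vehicle 23, 50 and 55, which is the same split of the vehicle group.

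Receptor and control genes were mostly negative too. Of 5 contractile receptors 4 were negative, against 51.0% of all genes. Only 1, Chrm2, was lower at an unadjusted p under 0.05 by edgeR, as were 11.5% of all genes. The muscarinic receptors Chrm2 and Chrm3 had -0.73 (edgeR adjusted p = 0.246) and -0.64 (edgeR adjusted p = 0.299), and Agtr1a lay near 0 at -0.10. Of 8 transcriptional regulators of smooth muscle 7 were negative, with Foxp2 at -1.04 and the SRF coactivator Mkl1 at -0.77 (edgeR adjusted p = 0.240 and 0.242). Only these 2 were lower at an unadjusted p under 0.05 by edgeR, while Foxf1 at -0.05 and Mkl2 at -0.01 lay near 0. In HFD against Chow these 5 lists also had no called member. Their lowest p-values were those of Foxf1 (0.68, edgeR adjusted p = 0.423), a transcription factor of gut mesenchyme, Itpr1 (0.38, edgeR adjusted p = 0.425), a calcium release channel, Itga5 (0.74, edgeR adjusted p = 0.442) and Srf (0.43, edgeR adjusted p = 0.445).

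Sums of markers of several other cells of the wall stood high in the same libraries. Interstitial cells of Cajal, the pacemakers of gut muscle, were followed by Kit, Ano1 and Etv1, which summed to 51.8 and 30.7 CPM in HFD Vehicle 23 and 50 and to 49.8 CPM in HFD 4, against 20.1 to 29.8 CPM in the other 9. A list of 15 enteric neuron genes summed to 77.4, 46.4 and 51.0 CPM in those 3, against 32.5 to 43.0 CPM. Single members of both lists did not all follow. In HFD Vehicle 50, Kit at 11.6 CPM and Ano1 at 11.7 CPM lay within the range of the other 9 libraries. The neuron gene Vip lay within that range in all 3, at 7.20, 3.66 and 3.69 CPM, against 2.28 to 8.81 CPM. The 8 pericyte and mural genes, led by Rgs5, summed to 378, 351 and 585 CPM, against 197 to 290 CPM. Most of that sum was Rgs5, at 225, 255 and 438 CPM, against 132 to 221 CPM in the others. Not every member followed: Pdgfrb was highest in HFD 30, at 37.2 CPM, and stood at 20.8 CPM in HFD Vehicle 50. The sums of mural and of gut muscle genes thus stood high in the same 3 libraries. The parts of vessels and gut muscle in the level of Acta2 were not tested. The 10 endothelial genes did not share the pattern, at 120, 73.2 and 108 CPM in those 3 libraries and 73.3 to 131 CPM in the others. The 11 fibroblast genes summed to 632, 500 and 618 CPM in the same 3, against 371 to 566 CPM, a range that overlaps. Markers of skeletal and heart muscle, 11 of 14 of them in both tables, summed to 27.2, 32.2 and 22.6 CPM in those 3, against 8.57 to 16.9 CPM. The largest part of that sum was Tnnt2, at 18.7, 19.1 and 10.8 CPM, against 2.44 to 8.02 CPM in the others. Ckm stood at 3.74, 5.41 and 6.46 CPM, against 1.75 to 4.27 CPM, so that HFD Vehicle 23 lay within the range of the others. In HFD PCN against HFD Vehicle the members with the lowest p had negative log2 fold changes in each of these mesenchymal and nerve lists. They were Ano1 (-0.84) and Etv1 (-0.79) for interstitial cells, Prph (-1.51) and Nos1 (-1.23) for neurons, Notch3 (-1.20) and Cspg4 (-0.84) for mural cells, and Col1a2 (-1.23) and Col1a1 (-1.66) for fibroblasts, with edgeR adjusted p-values of 0.231 to 0.255. Of 10 measured fibroblast genes 9 were negative, while Fbln1 went the other way at 0.61 (edgeR adjusted p = 0.242). Fbln1 stood at 192, 167 and 155 CPM in HFD PCN 5, 11 and 27, against 92.5, 131 and 113 CPM in HFD Vehicle 23, 50 and 55. Enterocyte genes lay on the other side, with all 13 log2 fold changes positive and a median of 0.44, led by Lct (lactase, 0.92) and Alpi (intestinal alkaline phosphatase, 0.99; edgeR adjusted p = 0.261 and 0.278). The enteric glia list ran the other way, at 136 and 144 CPM in HFD Vehicle 23 and 50 and 133 CPM in HFD 4, against 173 to 384 CPM in the other 9. Nearly all of that sum was Erbb3, a receptor that epithelial cells also make, while the glial genes Sox10 and S100b each stood at 1.15 CPM or less. In HFD PCN against HFD Vehicle, Erbb3 had a log2 fold change of 0.34 and S100b one of 0.17, with edgeR adjusted p-values of 0.519 and 0.896. No member of these lists was called by edgeR in HFD PCN against HFD Vehicle or in HFD against Chow.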

How the data were processed

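RNA-seq libraries from duodenum, 3 per group, were deposited by the authors as 2 tables of raw counts per gene, 1 with HFD and Chow and 1 with HFD PCN and HFD Vehicle. The submitters' processing notes name HISAT2, HTSeq, DESeq2 and the builds GRCm38 and mm10. No tool version or strand setting is given in the sources used here. The authors' own fold changes and adjusted p-values stand in the same tables and are printed only where named. Each comparison was fitted on its 6 libraries (12 for the test over the 4 groups) with edgeR 4.0.16 in R 4.3.3 (filterByExpr, TMM, robust quasi-likelihood F-test), calling genes at a Benjamini-Hochberg adjusted p under 0.05 over all genes tested. The script was tested on simulated data. Comparisons across tables used genes in both. SE was the fold change over the square root of F. Log2 CPM used a prior count of 2, and lengths and overlaps came from GENCODE M21. DESeq2 1.42.0, limma-voom (limma 3.58.1), other scalings, no filter and leaving out libraries were alternatives. Correlations used all 362880 pairings. The genes named are the 10 members, the 2 with the smallest p of each list, and the 10 most like the members' mean; Jph2 levels were shown after its values were seen. 1 list of signalling genes is not reported here. The members and lists were chosen with earlier results of these data known.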

Additional observations from a re-analysis of the deposited data

How the results depend on the processing

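No paired analysis was possible because the library numbers differ between all groups. Values below are log2 fold changes unless said otherwise, and the cause of each change was not tested. In HFD PCN against HFD Vehicle, leaving out 1 library at a time gave 0 to 6 called members, the 6 without HFD Vehicle 55, and no member changed sign. Leaving out HFD Vehicle 23 and 50 together gave a median of -0.014, with Acta2 at 0.031, Myh11 at 0.0029, Mylk at 0.12 and Lmod1 at 0.057. Untreated HFD in place of HFD Vehicle gave a median of -0.35, with Cnn1 at 0.031 and Myl9 at 0.12. The log2 difference of the summed share moved to -0.092 without HFD 4, HFD Vehicle 23 and HFD Vehicle 50, an alternative chosen after seeing the data. In HFD against Chow, limma-voom gave a median of -0.0016, with Tagln at -0.049 and Lmod1 at -0.090, and DESeq2 put Myl9 at 0.00096. Leaving out 1 library at a time moved the median over -0.38 to 0.39, Acta2 over -0.39 to 0.40, Actg2 over -0.49 to 0.22, Myh11 over -0.38 to 0.63, Tagln over -0.32 to 0.31, Cnn1 over -0.39 to 0.17, Des over -0.16 to 0.67, Myl9 over -0.47 to 0.21, Mylk over -0.32 to 0.37 and Lmod1 over -0.39 to 0.64. In HFD Vehicle against HFD, a comparison whose alternatives without those 3 libraries were added later, the same procedure moved the median over -0.066 to 0.75, Acta2 over -0.0040 to 0.76, Myh11 over -0.21 to 0.75, Des over -0.13 to 0.67, Mylk over -0.25 to 0.40, Smtn over -0.23 to 0.42 and Lmod1 over -0.23 to 0.79. Without the 3 libraries Des stood at -0.16 and Smtn at -0.017. In all, 18 of 120 values of the 10 genes changed sign in HFD against Chow. The same held for 6 of 140 in HFD PCN against HFD Vehicle and 19 of 130 in HFD Vehicle against HFD. Among all genes, edgeR's 10 calls in HFD PCN against HFD Vehicle became 322 with DESeq2, 843 without the filter on low counts and 0 to 3697 when 1 library was left out, and its 10 calls in HFD against Chow became 137, 351 and 4 to 63. Standard errors of the 10 genes were 0.20 to 0.33 in HFD PCN against HFD Vehicle and 0.27 to 0.45 in HFD against Chow with 3 libraries a group. Smtn, at -0.82 with a standard error of 0.25 in HFD PCN against HFD Vehicle, was not called, so differences several times the standard error could still miss the threshold.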

Other observations

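Genes of the exocrine pancreas and of the mesothelium varied between pieces, and the source of these reads was not tested. A list of 8 acinar genes, digestive enzymes of the pancreas, summed to 18.9, 2.33 and 8.01 CPM in HFD PCN 5, 11 and 27, and to 75.3, 28.9 and 10.2 CPM in HFD Vehicle 23, 50 and 55. In HFD 4, 30 and 38 it summed to 9.46, 22.8 and 4.46 CPM, against 47.6, 128 and 115 CPM in Chow 8, 17 and 19. The 3 Chow libraries thus lay above the 3 HFD libraries, while no acinar gene was called by edgeR in HFD against Chow, where all 8 were lower at an unadjusted p under 0.05 (median log2 fold change -3.22), as were 4.59% of all genes. Mesothelial genes, which mark the outer lining of the gut, summed to 18.9 CPM in HFD Vehicle 23, against 2.49 to 9.46 CPM in the other 11 libraries. Acinar sums were not highest in the 3 libraries with the most contractile RNA.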
